A study of Mus musculus with 12 samples.

Results

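Slc25a4, Ndufa10 and Fahd2a are nuclear genes whose proteins are tied to the mitochondrion, and each of their mRNAs carried 1 cytosine that met the rule for a methylated site in mouse neural stem cells (NSCs). A site was a cytosine covered at least 20 times, with 6 or more unconverted reads and a methylation level of 10% or more, in both replicates of at least 1 of 6 culture conditions. The methylation level is the share of unconverted reads after bisulfite treatment, with reads of another base left out. These 3 sites were selected on their measured levels, out of 884 different cytosines listed in the 3 genes. In the whole data set 6462 sites in 2079 genes met the rule, among 6384216 different cytosines listed. The lists had not passed the study's later filters, so a site here is a cytosine left unconverted under this rule. Such a site need not be among those the study held with high confidence, but the positions of these 3 sites are on the study's own site list. With the level limit raised to 20%, 1 of the 3 sites remained, in Fahd2a. When a call in a single library was enough, Ndufa10 gained a further cytosine at chr1:92439301, which was listed in pHF replicate 2 with 17 unconverted reads at a coverage of 122 (14.05%). Just inside the limit lay Slc25a4 in pLF (10.3% in its lower replicate), and just outside it lay Fahd2a in LF (9.68%) and pHF (9.25%) and Ndufa10 in pHF (9.32%).

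RNA bisulfite sequencing, which reads 5-methylcytosine (m5C) as unconverted cytosine, was run on poly(A) RNA of adult NSCs grown for 4 days at 3 folic acid concentrations. All 12 libraries came from cells of the subventricular zone of wild-type male C57BL/6 mice aged 6 to 8 weeks, plated on poly-ornithine and laminin in DMEM/F12 with B27, EGF and bFGF. Total mRNA was taken at low (LF, 1.5 µM), medium (MF, 10 µM) and high folic acid (HF, 80 µM). Polysome mRNA from sucrose gradients, after cycloheximide was added to hold ribosomes in place, was taken at the same concentrations (pLF, pMF and pHF), with 2 replicates per condition. The replicates are described as biological in the study's text, and the labels do not say whether they came from separate cultures or animals. The p-values of limma and the beta-binomial test therefore measure the spread between these libraries, which may be technical, and those of Fisher's exact test counting error only. The cells were sequenced in bulk, and fewer cells of a type and less RNA per cell cannot be told apart.

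Coverage summed over listed cytosines ran from 1186213013 to 2857966129 per library, and the median coverage from 335 to 920. The 2 libraries labelled HF did not match the study's own filtered site list. Filtering can only remove reads, yet the deposited coverage was lower than the filtered coverage at 41 of 93 and 44 of 88 positions, and at 0 positions in the other 10 libraries. They are called the libraries labelled HF here, and what they hold cannot be told from the data. The second pHF replicate stood apart too, with 38353 cytosines above a level of 90% against 1102 to 3465 elsewhere. The study's staining found all cells positive for Nestin and Sox2 protein. Markers were read here only from cytosines assigned to a single gene, so a marker that is not listed may still be expressed. Of 6 NSC markers, Nes, Vim, Pax6, Hes5 and Msi1 were listed in all 12 libraries, while Sox2 was not listed in any. The defining markers Rbfox3 (neurons), Mog (oligodendrocytes), Aif1 (microglia) and Cldn5 (endothelium) were not listed in any library either. Other markers of these and further types were listed in all 12 libraries, namely Tubb3, Map2, Aldh1l1, Olig2, Cx3cr1, Col1a1, Col1a2, Pdgfrb and Acta2. The summed relative coverage of 4 fibroblast and mural cell markers was 31.7 to 33.7 in the libraries labelled HF and 12.8 to 21.3 in all others. That of 2 endothelial markers was 0.113 to 0.150 there and 0 to 0.0581 in all others. It rested on Pecam1 alone, listed in 7 libraries with a median coverage of 10 to 40. For 4 oligodendrocyte markers the libraries labelled HF had 2.18 to 2.56 and pMF 2.32 to 2.72, against 3.55 to 5.07 in the other 8. For 4 neuron markers pMF had 3.81 to 4.20 and all others 1.68 to 3.47, and for 3 astrocyte markers pLF and pHF had 0.702 to 1.02 and all others 1.34 to 1.78. The NSC sum was mostly Vim, with a median coverage of 22130 to 37860 against 1114 to 3190 for Nes. For the 6 NSC markers pLF and pMF had 122 to 134 and all others 86.7 to 117. Among these others, LF had 97.15 to 102.9 and MF 88.1 to 94.8. Comparisons with pLF, with pMF and with the libraries labelled HF thus stand beside shifts in these markers, and LF against MF beside a smaller one. The part of these shifts in the results below was not tested.

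Mitochondria make most of their ATP by oxidative phosphorylation, and nearly all the proteins they need are translated in the cytosol from nuclear mRNAs. Complex I passes electrons from NADH into the respiratory chain, and the ADP/ATP carriers of the inner membrane exchange the ATP made in the matrix for cytosolic ADP. Folate carries the methyl groups that become S-adenosylmethionine, the methyl donor of RNA methyltransferases. In mRNA, m5C is placed mainly by enzymes of the NSUN family, of which NSUN2 is known for sites followed by a G-rich triplet.

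The sequences around the 3 sites are shown because the sites lie in different contexts. Each is the mRNA strand in DNA letters, 5′ to 3′, read from GRCm38.p6 with the exons of GENCODE vM21 joined, and the capital marks the called cytosine. The last line is the Slc25a5 mRNA, aligned with Slc25a4, with the aligned base in capitals.
Slc25a4: actgtctcacCaagatcttca
Ndufa10: ctgctgagcaCaggacaaggt
Fahd2a: actctttaccCaggggacctc
Slc25a5: actgcctggtTaagatctaca

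All 3 sites lay on the minus strand and in the coding sequence (CDS). Slc25a4 (ENSMUSG00000031633) encodes ADP/ATP translocase 1, and its site at chr8:46209134 was in exon 2 of 4, at base 486 of the 894-base CDS and base 3 of codon 162. Ndufa10 (ENSMUSG00000026260) encodes an accessory subunit of complex I. Its site at chr1:92469865 was in exon 3 of 10, at base 458 of 1065 and base 2 of codon 153, with 2 exonic bases left before the intron. On the unspliced genomic strand the same site therefore reads ctgctgagcaCaggtatggct. Fahd2a (ENSMUSG00000027371) encodes a protein of the fumarylacetoacetate hydrolase family, whose founding member acts in tyrosine breakdown. Its site at chr2:127436616 was in exon 7 of 8, at base 809 of 939 and base 2 of codon 270. The base was exonic in 2 of 2 annotated transcripts of Slc25a4, 5 of 8 of Ndufa10 and 3 of 7 of Fahd2a.

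All 3 called cytosines were followed by A, as were 31.1% of all listed cytosines and 26.85% of the 6462 sites. The motif CAGG, starting at the called base on the mRNA strand, was present in Ndufa10 and Fahd2a, and in 3.01% of listed cytosines and 2.31% of sites. CNGGG, read the same way and overlapping CAGG where N is A, was present only in Fahd2a of the 3, and in 2.01% of listed cytosines and 2.11% of sites. None of the 3 sites started CTCCA, which was found at 0.716% of listed cytosines and 0.542% of sites. For each site, the 41-base window with every C read as T occurred 1 time in the genome. By RNAfold at 37 °C with pairs spanning at most 150 bases, the called base had a pairing probability of 0.137 in Slc25a4, 0.288 in Ndufa10 and 0.958 in Fahd2a. The medians over all cytosines of the same transcripts were 0.827, 0.705 and 0.850. At 70 °C, near the temperature of the conversion, the values at the sites were 0.585, 0.306 and 0.833, and the medians 0.541, 0.494 and 0.601.

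At the Slc25a4 site, levels fell into a low range in LF and MF and a higher one in the other 4 conditions. In LF 154 of 2773 reads (5.55%) and 239 of 3123 reads (7.65%) were unconverted, and in MF 162 of 2731 (5.93%) and 180 of 3082 (5.84%). In polysome mRNA the pLF levels were 10.3% and 11.5%, the pMF levels 10.5% and 13.02% and the pHF levels 13.98% and 12.7%, at coverages from 3409 to 6798. All 4 pLF and pMF levels were above all 4 LF and MF levels. This is a description only, since the site was called in pLF and pMF and not in LF or MF. It was also called in HF and pHF. The libraries labelled HF gave 12.2% and 11.3% at coverages of 1601 and 1536, within the polysome range. In order of the mean, the level was 5.89% ± 0.0634 in MF, 6.60% ± 1.48 in LF, 10.9% ± 0.847 in pLF, 11.7% ± 0.648 in HF, 11.7% ± 1.81 in pMF and 13.35% ± 0.885 in pHF (SD, n = 2 each). Of these neighbours only LF and pLF did not overlap.

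The Ndufa10 site met the rule in pLF and pMF, and its levels are given as a description. Total mRNA had 2.65% and 5.28% in LF (31 and 73 unconverted reads at coverages of 1169 and 1384), 3.26% and 4.87% in MF (53 and 84 at 1628 and 1727), and 6.14% and 7.54% in the libraries labelled HF (34 and 41 at 554 and 544). Polysome mRNA had levels of 12.8% and 10.6% (pLF), 11.02% and 10.9% (pMF) and 9.32% and 14.2% (pHF), at coverages from 407 to 1042. Every polysome level was above every total level, and the levels in pLF and pMF are those that chose the site. The group means were 3.97% ± 1.86 in LF, 4.06% ± 1.14 in MF, 6.84% ± 0.98965 in HF, 10.9% ± 0.0971 in pMF, 11.7% ± 1.56 in pLF and 11.8% ± 3.46 in pHF (SD, n = 2 each). LF and MF overlapped, as did the 3 polysome conditions, while HF overlapped neither MF nor pMF.

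The Fahd2a site, called in pLF, pMF and HF, had the fewest reads. Its mean level was the highest of the 3 sites in each condition, although in pHF replicate 2 and in the pooled pHF reads (11.9%) it was the lowest. In total mRNA 20 of 139 (14.4%) and 15 of 155 (9.68%) reads were unconverted in LF, 11 of 121 (9.09%) and 9 of 137 (6.57%) in MF, and 19 of 144 (13.2%) and 21 of 173 (12.1%) in the libraries labelled HF. In polysome mRNA the pLF counts were 13 of 57 (22.8%) and 48 of 132 (36.4%), the pMF counts 11 of 80 (13.75%) and 9 of 67 (13.4%), and the pHF counts 14 of 67 (20.9%) and 21 of 227 (9.25%). Both pLF levels were above those of all other libraries, and the other polysome libraries overlapped the total libraries. The Wilson 95% intervals, which cover counting error only, were 13.8% to 35.2% and 28.7% to 44.8% in pLF, so they overlapped each other too. The group means were 7.83% ± 1.78 in MF, 12.03% ± 3.33 in LF, 12.7% ± 0.747 in HF, 13.6% ± 0.224 in pMF, 15.1% ± 8.23 in pHF and 29.6% ± 9.59 in pLF (SD, n = 2 each). Among neighbours in this order, LF and HF overlapped, as did pMF and pHF.

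**Figure D1:**
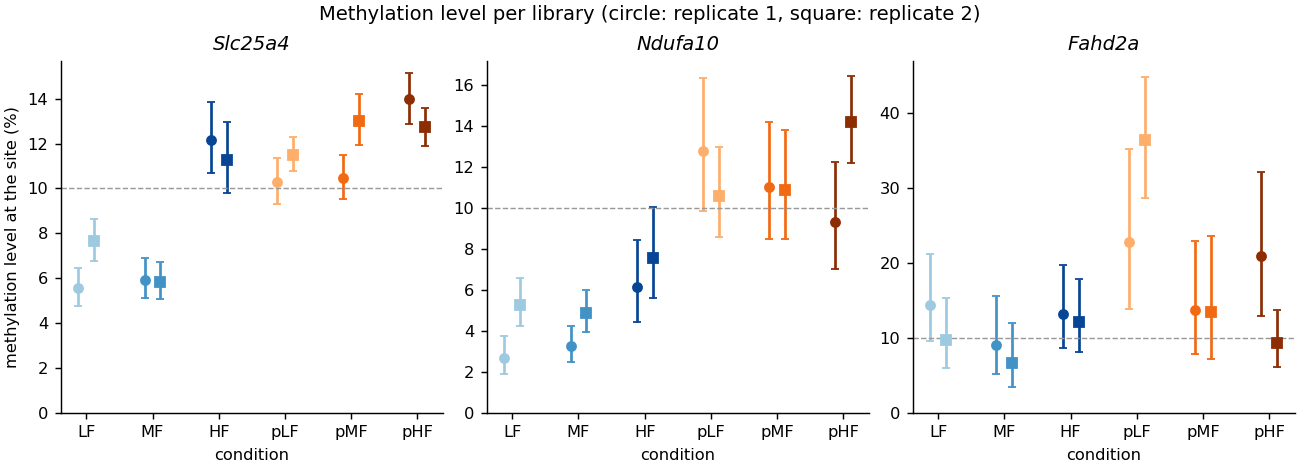
Methylation level (%) at the 3 sites in each of the 12 libraries, by condition, with Wilson 95% intervals for counting error as bars and the 10% limit of the rule as a dashed line. For Ndufa10 all polysome points (9.32% to 14.2%) lie above all total points (2.65% to 7.54%), for Slc25a4 the libraries labelled HF lie among the polysome points, and for Fahd2a both pLF points are highest.

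The other sites met the same rule, in some cases through the polysome libraries alone, so their levels are a description too. Over the 349 sites outside the 3 genes that every library covered at least 20 times, the median level was 8.56% to 9.41% in the total libraries and 14.8% to 16.3% in the polysome libraries. Within each library, 33.0% to 42.6% of the 352 sites had a lower level than Slc25a4, except in the libraries labelled HF, where 63.4% and 58.0% did. For Ndufa10 the share was 19.0% to 30.4% in LF and MF, 36.9% and 40.9% in the libraries labelled HF and 23.9% to 46.0% in polysome libraries. Fahd2a moved most in this ranking, from 26.4% in pHF replicate 2 to 83.8% in pLF replicate 2. The median of the other sites in the libraries labelled HF was 8.91% and 9.41%, within the range of the other total libraries.

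Because the levels chose the sites, a test is given only where a site was called in both or in neither of the groups compared. Fisher's exact test (two-sided, on reads pooled over replicates, adjusted over all sites of the comparison) has no term for the spread between replicates. For pLF against LF and pMF against MF, 52.8% and 51.3% of all sites passed. There all 3 members were called in the polysome group and not in the total group, and nothing is read from these comparisons. For LF against MF none of the 3 members passed, where Fisher's exact test gave an adjusted p of 0.310 for Slc25a4, 1 for Ndufa10 and 0.371 for Fahd2a, beside 0.840% of all 2620 sites. Both Fahd2a levels in LF were above both in MF, by 4.20 percentage points on average.

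Among the members that could be tested in polysome mRNA, Fahd2a passed for pLF against pMF (29.6% against 13.6%, adjusted p = 0.00108 by Fisher's exact test), where 10.9% of all 1394 sites passed. A beta-binomial test includes the spread between replicates, as a single value shared by all sites of a comparison and not the spread of each site. It called 0.215% of these sites, and with it Fahd2a had an adjusted p of 0.168. The Fisher's exact test result rested on pLF replicate 2, since without it the adjusted p was 0.579. Slc25a4 and Ndufa10 did not pass Fisher's exact test for pLF against pMF (adjusted p = 0.776 and 1), and their levels differed by -0.855 and 0.730 percentage points, although Slc25a4 passed without pMF replicate 1 (adjusted p = 0.0322). For pHF against pMF, Slc25a4 was 1.60 percentage points higher in pHF with overlapping replicates (adjusted p = 0.0501 by Fisher's exact test), beside 6.87% of 903 sites passing. Without pHF replicate 2 the difference was 2.23 points and the adjusted p 0.0264 by the same Fisher's exact test, and without pMF replicate 2 the adjusted p was 0.000703. It was 0.279 without pHF replicate 1 and 1 without pMF replicate 1 by Fisher's exact test, and 1 by the beta-binomial test with all libraries.

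For HF against MF, with the libraries labelled HF, 89.1% of 1339 sites passed Fisher's exact test and 82.6% the beta-binomial test. Of these sites 1138 were called in HF, MF or both, and 1073 of them passed Fisher's exact test when adjusted alone. The levels that chose sites thus enter this share. At positions on the study's own site list 80 of 200 passed Fisher's exact test there and 108 of 190 for pHF against HF, against 131 of 183 for pLF against LF and 122 of 184 for pMF against MF. The only member tested there, Ndufa10, was 2.78 percentage points higher in the libraries labelled HF (adjusted p = 0.000489 by Fisher's exact test, 0.0974 by the beta-binomial test). For pHF against HF, 64.4% of 710 sites passed Fisher's exact test and 55.8% the beta-binomial test. Here too 649 of the sites were called in pHF, HF or both, and 424 of them passed Fisher's exact test when adjusted alone. The rule chose the Ndufa10 site by its calls in polysome mRNA (pLF and pMF), and pHF missed the call only through replicate 1 (9.32%). Its comparison of pHF with HF is thus not free of that choice. Ndufa10 was 4.92 points higher in pHF (adjusted p = 1.58e-06 by Fisher's exact test, 0.149 by the beta-binomial test), and 2.48 points higher without pHF replicate 2 (adjusted p = 0.154 by Fisher's exact test). Slc25a4 was 1.63 points higher in pHF, with an adjusted p of 0.0524 by Fisher's exact test, and 2.25 points higher without pHF replicate 2 (0.0120). The adjusted p was 0.389 without HF replicate 2, 0.258 without pHF replicate 1 and 0.0586 without HF replicate 1 by Fisher's exact test, and 0.747 by the beta-binomial test with all libraries.

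Most cytosines next to the sites were almost completely converted. Within 25 bases of the Slc25a4 site, 13 other cytosines were listed, and 0.0674% to 0.240% of their reads per library were unconverted. The highest level of any of them was 1.41%, in the second library labelled HF. Within 100 bases the 55 listed cytosines gave 0.0766% to 0.239%. Within 25 bases of the Ndufa10 site, 8 cytosines were listed and gave 0.0994% to 0.267% in the 10 libraries that listed any. Within 25 bases of the Fahd2a site, 4 cytosines were listed, in 6 of 12 libraries, and the highest level was 5.80% (4 unconverted reads at a coverage of 69, in pMF replicate 2). A cytosine was listed only with at least 1 unconverted read and a coverage of at least 10, which raises these shares, most of all at low coverage.

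Slc25a4 had 138 further cytosines listed in all 12 libraries and more than 5 bases from the site. Of their reads, 0.103% ± 0.0237 were unconverted in total mRNA and 0.109% ± 0.0175 in polysome mRNA (SD, n = 6 each; difference 0.00549 percentage points, exact permutation test within concentrations, two-sided p = 0.685, smallest possible 0.00926). Among the cytosines listed in every library, the next highest mean levels were 0.630% at base 727 and 0.591% at base 668. Both came from the libraries labelled HF, with 2.67% and 3.98% at base 727 and 2.503% and 3.68% at base 668, against at most 0.262% in the other libraries. Of the Slc25a4 cytosines listed in fewer libraries, at any coverage, the highest mean over 6 or more libraries was 1.91%. In a single library, a Slc25a4 cytosine at chr8:46207322 had 22.7% in pLF replicate 2, from 5 unconverted reads at a coverage of 22, fewer reads than the rule asks for, and a Ndufa10 cytosine at chr1:92439082 had 15% there, from 3 at a coverage of 20.

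**Figure D2:**
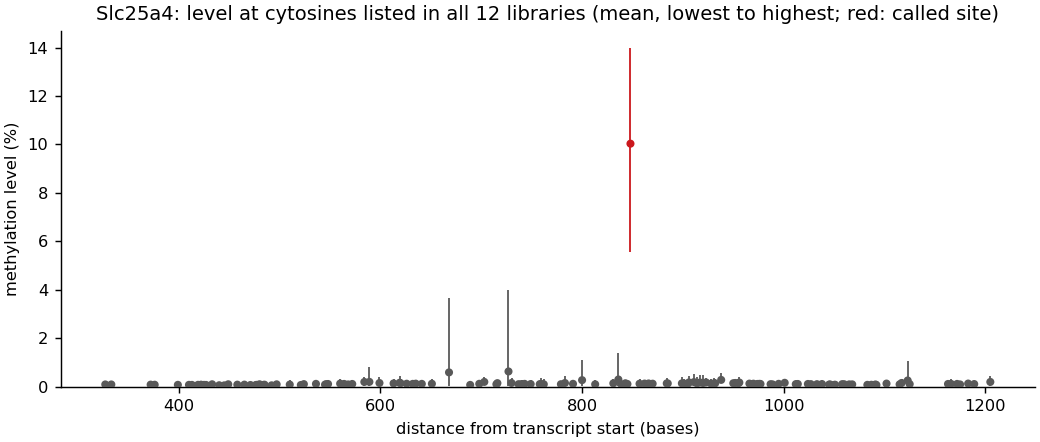
Methylation level (%) of the Slc25a4 cytosines listed in all 12 libraries against the distance from the transcript start in bases, as the mean over libraries (points) with the lowest and highest library (bars). The called site at base 848 has a mean of 10.0% and a range of 5.55% to 13.98%, and no other cytosine plotted exceeds 3.98% in any library.

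Slc25a5, which encodes the closely related ADP/ATP translocase 2, shares 77.4% of the 894 aligned CDS bases with Slc25a4. At the base aligned with the site the difference is C486T, counted from 1 at the A of the start codon, and 6 of the 21 bases shown above differ. The lists hold only reference cytosines, so that position of Slc25a5 could not be listed in any library. The highest level of any Slc25a5 cytosine with a coverage of at least 20 was 0.541% to 9.09%, depending on the library.

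The coverage of a gene was compared as the log2 of its median coverage over cytosines listed in all 12 libraries, the sites left out, relative to the median gene of the library. This measure could be made for 1337 genes. Slc25a4 entered with 140 cytosines, whereas Ndufa10 had 1 and Fahd2a 0, below the minimum of 3. On the log2 scale, Slc25a4 had a relative coverage of 0.44 and 0.38 (LF), 0.30 and 0.42 (MF), 0.94 and 0.90 (HF), 0.65 and 0.88 (pLF), 0.84 and 0.75 (pMF) and 0.82 and 0.99 (pHF). It was thus lowest in the 4 LF and MF libraries, with no overlap with the other 8. How many of the 1337 genes split in this way was not counted.

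Slc25a4 coverage was higher in polysome than in total mRNA at the lower concentrations. The log2 difference was 0.43 ± 0.12 (SE) for pMF against MF (limma, adjusted p = 0.00765), in a comparison where 28.2% of all genes were called higher and 36.1% lower. It was 0.35 ± 0.12 for pLF against LF (limma, adjusted p = 0.0229; 29.1% higher and 35.5% lower). Without LF replicate 1 the pLF against LF difference was 0.38 ± 0.16, without LF replicate 2 it was 0.32 ± 0.16 and without pLF replicate 2 it was 0.24 ± 0.12, and the call was lost (SE; limma, adjusted p = 0.0694, 0.122 and 0.104). The pMF against MF call was lost without MF replicate 1 (0.37 ± 0.16, limma, adjusted p = 0.0723). With the mean over cytosines in place of the median both calls were kept, at 0.74 for pMF against MF and 0.65 for pLF against LF (limma, adjusted p = 0.000218 and 0.000567). For pHF against HF the log2 difference was -0.01 ± 0.12 (limma, adjusted p = 0.922; 36.1% higher and 34.6% lower). The libraries labelled HF were 0.56 ± 0.12 above MF (limma, adjusted p = 0.00136; 29.6% higher and 36.5% lower). The polysome to total difference at the high concentration minus that at MF was -0.45 ± 0.17 (limma, adjusted p = 0.0410), and 56.2% of all genes passed this test, which was added after the values were seen. The remaining folate comparisons gave 0.05 for LF against MF, -0.03 for pLF against pMF and 0.11 for pHF against pMF (limma, adjusted p = 0.998, 0.933 and 0.641), beside 0%, 0% and 0.823% of genes called. At an unadjusted limma p under 0.05 there were 24 genes for LF against MF and 150 for pLF against pMF.

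At its 1 cytosine listed in all 12 libraries, Ndufa10 had a coverage of 1684 and 1809 (LF), 1749 and 1945 (MF), 1154 and 1019 (HF), 1947 and 3663 (pLF), 1861 and 1906 (pMF) and 2035 and 2462 (pHF). When genes with 1 such cytosine were let into the fit (2424 genes), Ndufa10 was higher in polysome mRNA at each concentration. The log2 difference relative to the median gene was 0.68 ± 0.13 for pLF against LF, 0.43 ± 0.13 for pMF against MF and 0.74 ± 0.13 for pHF against HF (SE; limma, adjusted p = 0.00129, 0.0156 and 0.000575), beside 29.1%, 28.9% and 31.6% of these genes called higher. It was lower in the libraries labelled HF than in MF (-0.46 ± 0.13, limma, adjusted p = 0.0108; 33.3% called lower). These values rest on a single position of the mRNA. Besides it, only the called site of Ndufa10 was listed in all 12 libraries, and coverage there did not rise in polysome mRNA at the lower concentrations. Relative to the median gene, mean coverage at the called site was 0.310 in LF and 0.139 in pLF, and 0.414 in MF and 0.159 in pMF. It was 0.169 in the libraries labelled HF and 0.174 in pHF. A rise of the whole gene in polysome mRNA is thus not shown.

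With the median taken over whatever cytosines each library lists, 9448 genes could be compared, the other members among them. This median moves with which cytosines are listed, 116 to 258 per library in Ndufa10 and 14 to 88 in Fahd2a. For Ndufa10 the 2 libraries of each group had medians of 1376 and 1493 (LF), 1530 and 1978.5 (MF), 567 and 697 (HF), 1060.5 and 1850 (pLF), 1289 and 1235 (pMF) and 1108 and 2321.5 (pHF). The lowest were those of the libraries labelled HF. For Fahd2a the medians were 130 and 228 (LF), 191 and 216 (MF), 108 and 100 (HF), 123.5 and 291.5 (pLF), 209 and 197 (pMF) and 202.5 and 361.5 (pHF). Relative to the median gene, the polysome to total log2 differences at the low, medium and high concentration were 0.65, 0.54 and 1.19 for Ndufa10 (limma, adjusted p = 0.224, 0.310 and 0.0544) and 0.83, 1.01 and 1.22 for Fahd2a (0.208, 0.138 and 0.0876). On this measure Slc25a4 had 1.14 for pLF against LF and 1.03 for pMF against MF (limma, adjusted p = 0.0573 and 0.0807). By limma, 0 of the 3 members passed in any of the 7 comparisons, including Ndufa10, for HF against MF (-0.86, adjusted p = 0.183). At an unadjusted limma p under 0.05 were Slc25a4 for pLF against LF and pMF against MF, Ndufa10 for HF against MF and pHF against HF, and Fahd2a for pMF against MF and pHF against HF. The shares of all genes that passed after adjustment were 10.4% for pLF against LF, 8.62% for pMF against MF, 9.04% for pHF against HF, 3.04% for HF against MF, 0.0318% for LF against MF, 0.233% for pLF against pMF and 0.0635% for pHF against pMF.

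Coverage at the site was set against the gene's median coverage over its other cytosines. For Slc25a4 these were the cytosines listed in all 12 libraries, and for Ndufa10 and Fahd2a those each library lists. The ratio of Slc25a4 is therefore not comparable with those of the other genes. At the Ndufa10 site this ratio was 0.888 in LF, 0.969 in MF and 0.879 in HF, but 0.394 in pLF, 0.392 in pMF and 0.442 in pHF. The 6 polysome libraries were all below the 6 total libraries. At the Slc25a4 site the ratio was 0.539 in LF and 0.558 in MF, 0.717, 0.672 and 0.595 in pLF, pMF and pHF, and 0.255 in the libraries labelled HF. At the Fahd2a site it was 0.875 in LF, 0.634 in MF, 1.53 in HF and 0.361 to 0.479 in the polysome conditions. At this site too the 6 polysome libraries, with 0.331 to 0.628, were below the 6 total libraries, but the lowest total value was 0.634. The Fahd2a median is over 14 to 88 cytosines that differ between libraries. How many other sites split in this way was not counted. On this measure the polysome levels of Ndufa10 and Fahd2a were read where the coverage relative to the gene was lower, for Fahd2a with little gap between libraries. The part of this in the levels was not tested.

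**Figure D3:**
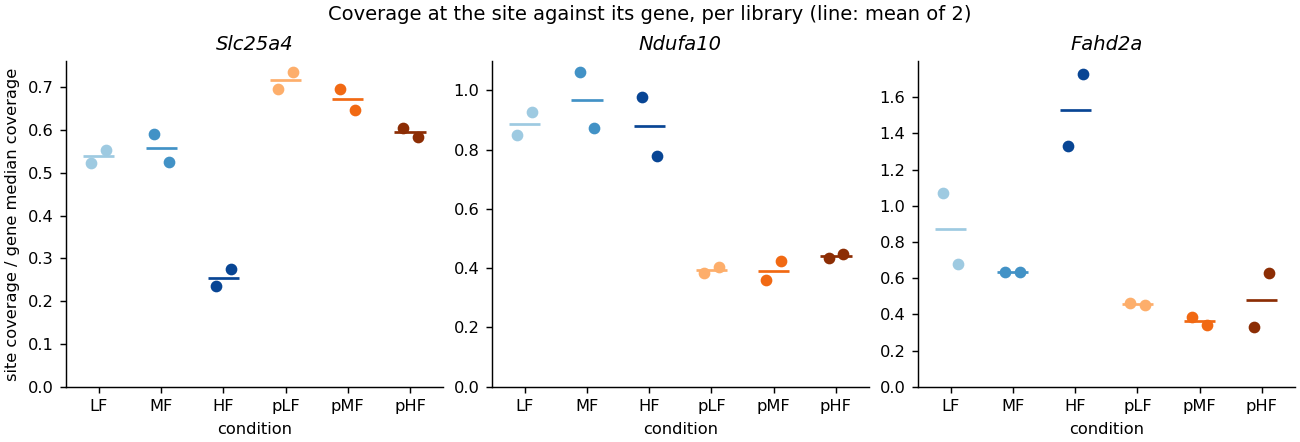
Coverage at the site divided by the median coverage over other cytosines of the gene (no unit), for each of the 12 libraries (points) with the mean of 2 replicates as a line. The median is over cytosines listed in all 12 libraries for Slc25a4 and over those each library lists for Ndufa10 and Fahd2a. The Ndufa10 ratio is 0.879 to 0.969 on average in total mRNA and 0.392 to 0.442 in polysome mRNA, and the Slc25a4 ratio is lowest, at 0.255, in the libraries labelled HF.

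Coverage along Slc25a4 had a different shape in each kind of library. Of the cytosines listed in any library, 2 of 26 in the 5′ UTR and 138 of 219 in the CDS, the site left out, were listed in all 12. Over these 2 of the 5′ UTR, coverage relative to the median gene was 0.396 to 0.420 in LF and MF, 1.09 to 1.31 in the libraries labelled HF and 1.80 to 2.59 in polysome mRNA, with no overlap. Over the 138 of the CDS it was 1.23 to 1.38 in LF and MF, 1.92 to 1.99 in the libraries labelled HF and 1.56 to 2.02 in polysome mRNA. The polysome profiles had their lowest point at base 584, at -1.90 in pLF, -1.85 in pMF and -1.89 in pHF on the log2 scale. The LF and MF profiles were lowest at base 1205 and the profile of the libraries labelled HF at base 737, near the site. At the site itself, at base 848, the mean log2 relative coverage was -0.48 in LF, -0.48 in MF, -1.06 in the libraries labelled HF, 0.28 in pLF, 0.22 in pMF and 0.16 in pHF. The libraries labelled HF had a level within the polysome range at the site, and the lowest coverage there.

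**Figure D4:**
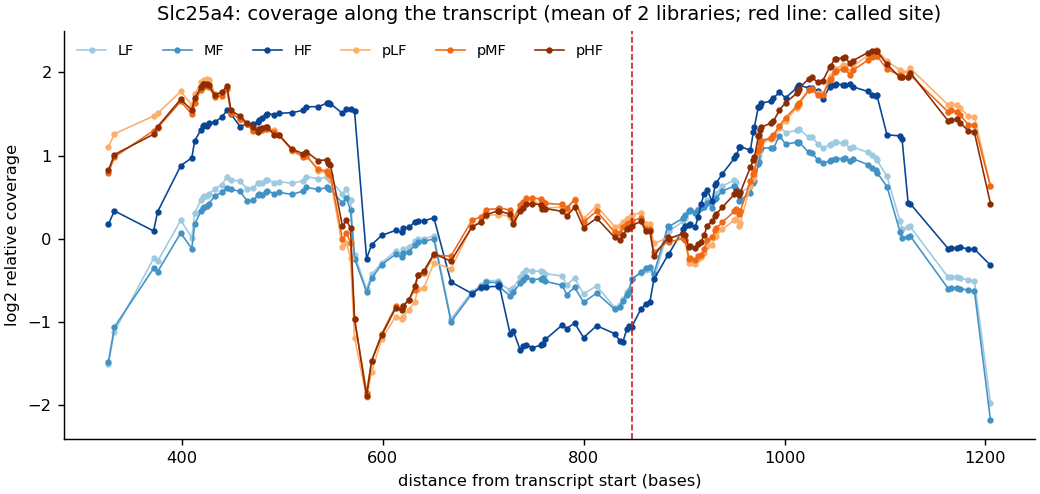
Log2 coverage relative to the median gene at each Slc25a4 cytosine listed in all 12 libraries, against the distance from the transcript start in bases, as the mean of 2 libraries per condition (lines), with the called site as a red dashed line. The 3 polysome lines run together and dip at base 584, LF and MF run together, and at the site the line of the libraries labelled HF is the lowest of the 6 (-1.06).

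The partners of the 3 proteins were read from lists of complex I subunits, mitochondrial carriers, ADP/ATP exchange partners and the fumarylacetoacetate hydrolase family. Of 36 complex I subunits, 20 could be tested over the cytosines listed in all 12 libraries, Ndufa10 not among them, and 33 over those each library lists. In pMF against MF 11 of the 20 rose and 4 fell, beside 28.2% of all genes called higher and 36.1% lower, with a median log2 difference of 0.52 against -0.10 for all genes. Ndufb9 (2.05 ± 0.14), Ndufc2 (1.77 ± 0.18) and Ndufb11 (1.58 ± 0.17), accessory subunits of the membrane arm, rose most (SE; limma, adjusted p = 3.60e-07, 7.53e-06 and 1.19e-05). The largest falls were in Ndufs4 (-0.89 ± 0.19), Ndufa7 (-0.88 ± 0.14) and Ndufa11 (-0.73 ± 0.11), with limma adjusted p of 0.00137, 0.000174 and 0.000135. In pLF against LF 12 rose and 4 fell (median 0.56 against -0.08, beside 29.1% of all genes called higher and 35.5% lower), with Ndufb9 at 1.85, Ndufc2 at 1.70, Ndufb11 at 1.47, Ndufa7 at -0.85, Ndufa11 at -0.60 and Ndufs4 at -0.53.

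In pHF against HF 10 complex I genes rose and 4 fell (median 0.32 against 0.02, beside 36.1% of all genes called higher and 34.6% lower). Ndufb11 (2.05), Ndufb9 (1.99) and Ndufa8 (1.63) rose most, and Ndufa2 (-1.40), Ndufa7 (-0.95) and Ndufb10 (-0.70) fell most. In HF against MF 5 rose and 6 fell (median -0.14 against -0.10, beside 29.6% of all genes called higher and 36.5% lower). The largest rises there were in Ndufv3 (1.00), Ndufa2 (0.92) and Ndufb10 (0.86), and the largest falls in Ndufs4 (-2.20), Ndufa6 (-0.92) and Ndufs3 (-0.73). In LF against MF, pLF against pMF and pHF against pMF 0 of 20 passed by limma, and 0, 2 and 2 had an unadjusted p under 0.05. Over the cytosines each library lists, the falls and all calls for HF against MF were lost. Of the 33 subunits, 8 were called higher and 0 lower in pLF against LF, 9 and 0 in pMF against MF, 6 and 0 in pHF against HF and 0 and 0 in HF against MF (limma), beside 10.4%, 8.62%, 9.04% and 3.04% of all genes called. At an unadjusted limma p under 0.05 there were 8 for HF against MF. The largest rises were in Ndufc1 (3.72), Ndufb4 (3.54) and Ndufb11 (2.03) in pLF against LF, in Ndufb6 (5.54), Ndufc1 (2.49) and Ndufb11 (1.80) in pMF against MF, and in Ndufc2 (3.33), Ndufb4 (2.97) and Ndufs4 (2.35) in pHF against HF. Ndufs4 turned sign in pLF against LF (0.51) and pMF against MF (0.54), by limma with an adjusted p of 0.440 and 0.418. Called sites were present in 7 of 36 complex I genes. Beside this stand 2079 (16.7%) of the 12463 genes with a cytosine covered at least 20 times in both replicates of a condition. The 9 sites of the complex I genes lay in Ndufa10, Ndufb10, Ndufb6, Ndufb9, Ndufs5, Ndufs8 and Ndufv1.

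**Figure D5:**
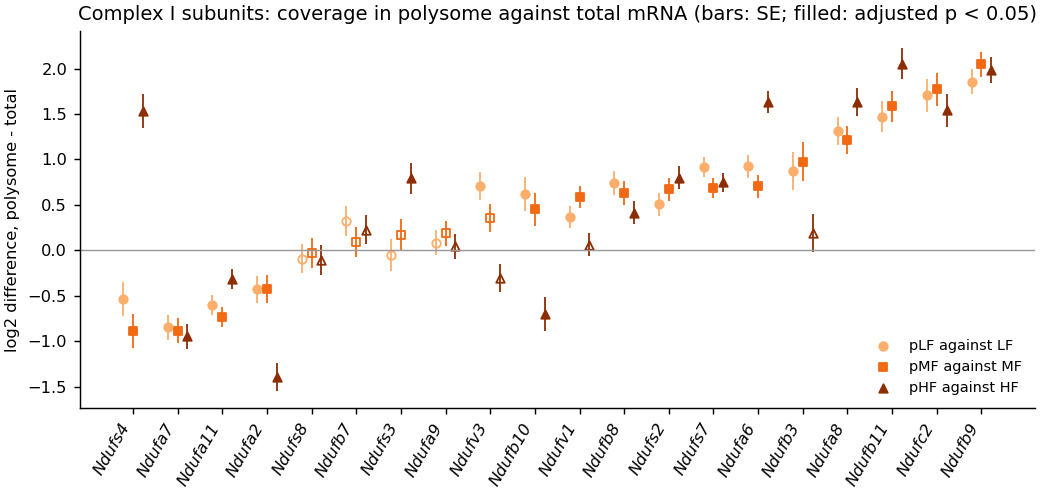
Log2 difference in gene coverage between polysome and total mRNA (points) with its SE (bars) for the 20 complex I subunits tested over the cytosines listed in all 12 libraries, at the low, medium and high concentration, filled where the limma adjusted p was under 0.05. Ndufb9, Ndufc2 and Ndufb11 are high in all 3 comparisons, and Ndufs4 is -0.53 and -0.89 in the comparisons at LF and MF but 1.53 with the libraries labelled HF.

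The carriers were listed as members of the Slc25 family, most of which move metabolites across the inner membrane. Of these, 5 of 36 could be tested over the cytosines listed in all 12 libraries and 28 over those each library lists. On the first measure, in pMF against MF the rises were in Slc25a39 (0.64), Slc25a4 (0.43) and Slc25a11 (0.34, the oxoglutarate carrier), and the fall was in Slc25a5 (-0.39 ± 0.13, limma adjusted p = 0.0232). In pLF against LF Slc25a39 (0.78) and Slc25a4 rose. In pHF against HF Slc25a3 (1.21, the phosphate carrier) and Slc25a5 (0.63) rose, and in HF against MF Slc25a4 and Slc25a11 (0.29) rose while Slc25a3 (-1.12) and Slc25a5 (-1.11) fell. These calls stand beside 28.2% of all genes higher and 36.1% lower in pMF against MF, 29.1% and 35.5% in pLF against LF, 36.1% and 34.6% in pHF against HF, and 29.6% and 36.5% in HF against MF. The fall of Slc25a5 in pMF against MF was lost by limma with upper quartile scaling (adjusted p = 0.0858), quantile normalization (0.159), and without MF replicate 1 (0.0849), MF replicate 2 (0.0935) or pMF replicate 2 (0.162). With the mean over cytosines it was -0.49 and kept its call (limma, adjusted p = 0.00412). On that measure Slc25a5 also had -0.42 for pLF against LF and -0.60 for HF against MF (limma, adjusted p = 0.0101 and 0.00105), and its rise in pHF against HF was lost and turned sign (-0.07, 0.592). Over the cytosines each library lists the pMF against MF difference turned sign (0.20, limma adjusted p = 0.690), and the fall in HF against MF was lost there (-0.61, 0.284). None of the other carrier calls above was kept on that measure either, where Slc25a39 turned sign in pLF against LF (-0.96) and pMF against MF (-0.58) and Slc25a11 in HF against MF (-0.12). Of the 28 carriers, those called on it by limma were Slc25a23 in pLF against LF (-2.29) and Slc25a20 in pHF against HF (2.88). Called sites were present in 7 of the 35 carrier genes so covered, beside the 16.7% of all genes (8 sites in Slc25a13, Slc25a17, Slc25a23, Slc25a3, Slc25a36, Slc25a4 and Slc25a51).

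The ADP/ATP exchange partners, which share Slc25a4 and Slc25a5 with the carriers and add the outer membrane channels Vdac1, Vdac2 and Vdac3, had 5 of 8 genes tested over the cytosines listed in all 12 libraries and 7 over those each library lists. On the first measure Vdac3 fell in pLF against LF (-1.17) and pMF against MF (-0.93). In HF against MF Vdac1 (-0.95), Vdac2 (-0.93) and Vdac3 (-1.18) fell, and in pHF against HF they rose by 0.72, 0.96 and 0.68 on the log2 scale. In HF against MF, where 36.5% of all genes were called lower, Slc25a4 was the only one of the 5 called higher. Over the cytosines each library lists, 0 of 7 were called in pLF against LF, pMF against MF or HF against MF by limma, and 1, 2 and 3 had an unadjusted p under 0.05. There Vdac1, Vdac2 and Vdac3 had -1.22, -1.06 and -1.52 for HF against MF (limma, adjusted p = 0.0614, 0.0978 and 0.0814), and Vdac3 turned sign in pLF against LF (0.34) and pMF against MF (0.14). Vdac2 (1.48) and Vdac3 (1.90) were called higher in pHF against HF, and Vdac1 had 1.04 (limma, adjusted p = 0.0238, 0.0261 and 0.0590). Of the carriers and partners tested on the first measure 0 passed by limma in LF against MF, pLF against pMF and pHF against pMF, and Vdac1, in LF against MF, was the only one with an unadjusted p under 0.05. Of the 3 genes of the fumarylacetoacetate hydrolase family, 0 could be tested over the cytosines listed in all 12 libraries. Over those each library lists 2 could be tested, Fahd2a among them, and 0 passed by limma in any comparison, with 1 at an unadjusted p under 0.05 in pMF against MF and in pHF against HF. Fahd2a alone of the 3 had a called site.

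As a description over 12 libraries that share conditions and depth, the genes whose relative coverage was most like that of Slc25a4 were Hsd17b4 (Pearson r = 0.986), Mars (0.9745) and Ptch1 (0.966). For Ndufa10, over the cytosines each library lists, they were Cd81 (0.969), Uqcrfs1 (0.966) and Uxt (0.965), and for Fahd2a Eif3i (0.9675), Ssr2 (0.9655) and Tor2a (0.955). By level, the sites most like Slc25a4 were in Gnptg (0.921), Smyd2 (0.920) and Cenpv (0.911). Those most like Ndufa10 were in Surf4 (0.913), Nomo1 (0.911) and Ccdc107 (0.908), and those most like Fahd2a in Tmem176a (0.901), Slc6a6 (0.843) and mt-Co1 (0.8335).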

How the data were processed

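RNA bisulfite libraries were made from poly(A) RNA of 12 samples, grouped by their labels. Per the study's methods, the authors trimmed with fastp, kept reads that meRanGh placed uniquely on mm10, and called cytosines with meRanTK. They deposited, per library, a list of cytosines with coverage and unconverted reads as counts and the methylation level as a fraction. These lists hold only cytosines covered at least 10 times with 1 or more unconverted reads, and had not passed the study's later filters. R 4.1.1 is named in the submitters' processing notes.

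From these lists, cytosines in state M without a variant base were kept. Site levels were compared by two-sided Fisher's exact test, the reads of both replicates summed, for sites covered at least 20 times in each of the 4 libraries compared, and gene coverage with limma 3.58.1 (R 4.3.3) in 1 fit of 6 group means over 12 libraries, for genes with at least 3 cytosines listed in all of them. All p-values were adjusted by Benjamini-Hochberg over the whole table, at a threshold of 0.05. Coverage at cytosines is no count of independent reads, since 1 read covers many, so no count model was used. Wilson 95% intervals and counts came from Python 3.11.15 with scipy 1.17.1, sequences from pysam 0.24.0 and pairing from ViennaRNA 2.7.2. The scripts were tested on simulated data. Named were the members, Slc25a5, the 3 genes and sites most like each member, and of each list the genes called, or the 3 with the largest change in each direction where more than 5 were called. The members, gene lists, markers and tests were chosen with earlier results of these data known. Alternatives were other limits for a site, a beta-binomial and a limma test of levels, a replicate block, other coverage measures and scalings, and leaving out each library. Strand-specific libraries were made, as the methods state.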

Additional observations from a re-analysis of the deposited data

Results flagged for a closer look

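The polysome to total difference in Slc25a4 gene coverage was not the same at each concentration. It was -0.45 ± 0.17 (SE) on the log2 scale when the difference at MF was subtracted from that at the high concentration, where the total libraries are those labelled HF (limma test of the difference between differences, adjusted p = 0.0410). This test was chosen after the values were seen, and 56.2% of the 1337 genes passed it. With the cytosines each library lists it was -0.68 (limma, adjusted p = 0.485). For LF minus MF the value was -0.08 (limma, adjusted p = 0.985), with 0% of genes called. The libraries labelled HF did not match the study's site list, and the part of this in the result was not tested.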

How the results depend on the processing

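Below, the comparisons LF against MF, HF against MF, pLF against pMF, pHF against pMF, pLF against LF, pMF against MF and pHF against HF are taken in this order. Raising the level limit to 20% left 1 of 3 sites, and the other limits of the rule left 3 or, with calls in 1 library, 4. Of the values recomputed, 387 kept their direction and side of the threshold, 53 counts moved, 19 values were weaker, 8 stronger and 20 reversed. The causes were not tested beyond what each alternative leaves out.

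Fisher's exact test called 22, 1193, 152, 62, 422, 399 and 457 sites. The beta-binomial test called 0 for LF against MF, 3 for pLF against pMF, 2 for pHF against pMF and 263 for pMF against MF, and limma on the log odds 0 for LF against MF, pLF against pMF and pHF against pMF, 277 for pLF against LF and 188 for pMF against MF. Sites called in either condition compared gave 14 for LF against MF and 216 for pMF against MF. Positions on the study's list, of which fewer could be tested, gave 7 of 217 for LF against MF, 80 of 200 for HF against MF, 16 of 186 for pLF against pMF, 42 of 193 for pHF against pMF, 131 of 183 for pLF against LF, 122 of 184 for pMF against MF and 108 of 190 for pHF against HF, and a coverage of 50 or more gave 748 for HF against MF. Leaving out 1 library gave 4 to 47, 1172 to 1181, 94 to 139, 28 to 107, 362 to 383, 307 to 366 and 428 to 454. LF against MF had 4 without LF replicate 1, 39 without LF replicate 2 and 47 without MF replicate 2. The comparison pLF against pMF had 94 without pLF replicate 1, and pHF against pMF had 107 without pHF replicate 1, 28 without pHF replicate 2 and 33 without pMF replicate 1.

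The 3 member calls by Fisher's exact test given above as tests were lost in tests with a term for replicate spread. The adjusted p of Ndufa10 for HF against MF was 0.0974 by the beta-binomial test and 0.0954 by limma, that for pHF against HF 0.149 and 0.223, and that of Fahd2a for pLF against pMF 0.168 and 0.312. Slc25a4 passed Fisher's exact test for pHF against pMF with sites called in either condition (0.0428), on the study's list (0.0212) and at a coverage of 50 or more (0.0311), and for pHF against HF at that coverage (0.0389). Leaving out 1 library, Fisher's exact test gave for LF against MF 0.0868 to 1 (Slc25a4), 0.216 to 0.735 (Ndufa10) and 0.313 to 1 (Fahd2a), for HF against MF 3.34e-05 to 0.0376 (Ndufa10), for pLF against pMF 0.0322 to 1 (Slc25a4), 1 (Ndufa10) and 0.000653 to 0.579 (Fahd2a), for pHF against pMF 0.000703 to 1 (Slc25a4), and for pHF against HF 0.012 to 0.389 (Slc25a4) and 5.69e-08 to 0.154 (Ndufa10). The pooled level of Slc25a4 turned direction without LF replicate 2 (LF against MF, 1.0) and without pMF replicate 2 (pLF against pMF, 0.865), and that of Ndufa10 without LF replicate 1 (0.347) or MF replicate 2 (0.513) for LF against MF and without pLF replicate 1 (1.0) for pLF against pMF, all adjusted p by Fisher's exact test.

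Replicate numbers are shared between groups, but the labels do not say that a number pairs samples, and the correlation of the deviations of same-numbered libraries was -0.414 to 0.227 for gene coverage and -0.171 to 0.0845 for site levels. With the replicate block, limma called 16 sites for LF against MF (1 higher and 15 lower in LF), against 0 without it, and 0 for pLF against pMF and for pHF against pMF and 139 for pMF against MF, and gave an adjusted p of 0.131 (HF against MF) and 0.299 (pHF against HF) for Ndufa10 and 0.274 (pLF against pMF) for Fahd2a.

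Gene coverage had 0, 884, 0, 11, 864, 860 and 945 called genes by limma. With genes of 1 or more cytosines there were 1589 for HF against MF, 2 for pLF against pMF, 3 for pHF against pMF, 1594 for pLF against LF, 1601 for pMF against MF and 1716 for pHF against HF. With 10 or more there were 584 for HF against MF, 5 for pHF against pMF, 544 for pLF against LF, 551 for pMF against MF and 618 for pHF against HF. Over the cytosines each library lists there were 3 for LF against MF, 287 for HF against MF, 22 for pLF against pMF and 6 for pHF against pMF, and upper quartile scaling gave 18 for pHF against pMF. Leaving out 1 library, where a lone sample is assumed to vary like the other groups, gave 0 to 0, 745 to 963, 0 to 194, 0 to 100, 665 to 895, 678 to 974 and 806 to 1019. The comparison pLF against pMF had 2 without pLF replicate 1 and 194 without pLF replicate 2, and pHF against pMF had 100 without either pLF replicate, 0 without pMF replicate 1 or pHF replicate 2, 2 without pMF replicate 2 and 29 without pHF replicate 1.

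The Slc25a4 log2 difference ranged without 1 library over -0.011 to 0.11, 0.50 to 0.62, -0.14 to 0.081, 0.029 to 0.20, 0.24 to 0.46, 0.37 to 0.50 and -0.098 to 0.07. Over the cytosines each library lists it was 0.52 for HF against MF, 1.14 for pLF against LF and 1.03 for pMF against MF, none of them past the threshold, and turned sign for pLF against pMF (0.13), pHF against pMF (-0.16), pHF against HF (0.35) and the fraction difference LF minus MF (0.11), while HF minus MF was -0.68. The sign also turned with the mean over cytosines for pLF against pMF (0.018) and pHF against HF (0.27), and for pHF against HF with genes of 1 or more cytosines (0.029), upper quartile scaling (0.082), quantile normalization (0.073) and without HF replicate 1 (0.003) or pHF replicate 1 (0.07). It turned without MF replicate 1 for LF against MF (-0.011) and without pLF replicate 1 (0.081) or pMF replicate 1 (0.011) for pLF against pMF. The polysome minus total difference in unconverted reads at other Slc25a4 cytosines was -0.00378 points without replicate 1 and 0.0148 without replicate 2.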
